A study of Rattus norvegicus with 6 samples.

Results

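Cultured rat adipose-derived stem cells (ADSCs) that carried the tracer 124I-HIB were compared with unlabelled ADSCs by expression array. The comparison rests on 2 of the 6 arrays of the series, 1 of labelled and 1 of unlabelled cells, chosen by their labels. Both cultures came from Sprague Dawley rats aged 13 weeks and were taken at day 14 of culture. The labels give neither the amount of tracer nor the time between labelling and RNA extraction, and they do not say how many animals or cultures a sample holds. The other 4 arrays held heart muscle of Sprague Dawley rats aged 13 weeks at day 21: 1 sham-operated, 1 infarcted and injected with PBS, and 2 infarcted and injected with labelled ADSCs, numbered replicates 1 and 3. The series set these cells side by side to see how their expression profile differed in vitro.

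ADSCs are mesenchymal stromal cells grown from the vascular fraction of fat. They divide in culture, can be turned into fat, bone or cartilage cells, and secrete growth factors and chemokines. HIB is hexadecyl iodobenzoate, an ester with a long hydrocarbon chain that lodges in cell membranes, and its iodine atom is a positron emitter, so that labelled cells can be followed by imaging. Cells that take up fatty acids switch on targets of the nuclear receptors called PPARs, which serve fat storage and burning, and oxysterols act on LXR receptors, whose targets export cholesterol. Radiation damage acts in part through p53, whose targets stop the cell cycle or start cell death.

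Of 27450 features on the array (15443 named genes and probes without a gene name), 17850 were measured on both cell arrays, 10621 of them named. A feature counts as measured where its probe was well above background, and its level is the log2 processed signal minus that array's 75th percentile, a signal of 2360 in unlabelled and 2615 in labelled cells. A difference is the labelled level minus the unlabelled one, on the log2 scale. Signals are given before this scaling, unlabelled cells first. With 1 array on each side no difference has a replicate or a test, and precision is limited by the number of arrays. As a scale, the 2 treated infarcts, the only arrays of 1 condition, differed from each other with an SD of 0.309 over 17014 features, and the cell arrays with an SD of 0.305. That pair is heart tissue, so its spread is not that of cultured cells. On all 6 arrays the share of spots well above background was 68.5% to 72.5% and no spot was saturated.

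Most mesenchymal markers that define such cells were present. Of 16 mesenchymal stem cell surface markers on the array, 14 were measured on both cell arrays, with a median difference of -0.04. Thy1 (CD90) had a signal of 4479 in unlabelled and 4626 in labelled cells, levels of 0.92 and 0.82, and it was not well above background on any of the 4 heart arrays. Nt5e (CD73) differed by -0.08, Eng (CD105) by -0.14 and the PDGF receptor Pdgfra by -0.01. Alcam, an adhesion molecule, was the member furthest from 0, at -0.72. All 9 fibroblast markers on the array were measured as well, with a median difference of -0.03. These lists therefore do not tell ADSCs from fibroblasts. Of the 7 mature adipocyte markers on the array, Adipoq, Lep, Cidec and Retn were not well above background on either cell array. The leukocyte marker Ptprc, and Myh6 and Nppa of cardiomyocytes were not either. These marker lists were not wholly absent: 1 mature adipocyte marker and 3 of 7 cardiomyocyte markers were measured on both cell arrays. Of the blood endothelial markers, Pecam1 had signals of 205 and 221.

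**Figure D1:**
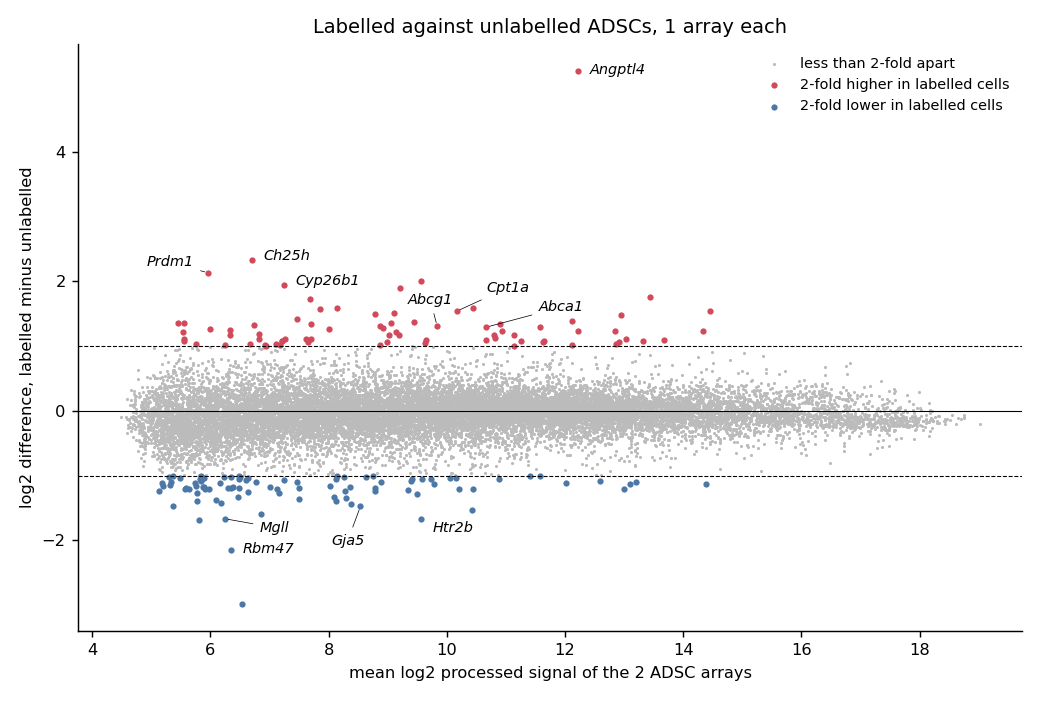
Difference between labelled and unlabelled ADSCs (log2, vertical axis) against the mean log2 processed signal of both arrays (horizontal axis) for the 17850 measured features, 1 point each. Dashed lines mark 2-fold. Angptl4 stands alone at 5.26, and the spread is wider among dim features.

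Of the 17850 measured features, 44.2% were higher in labelled cells, by any amount, and the counts of higher and lower list members below are set against that share. By size, 168 features were 2-fold apart. Of these, 77 were higher in labelled cells (0.431% of those measured) and 91 were lower (0.51%). Named genes made up 50 and 52 of them. Only 4 features were 4-fold higher (Angptl4, Ch25h, Prdm1 and a probe with no gene name) and 2 were 4-fold lower (Rbm47 and another such probe). At 1.5-fold, 400 were higher (2.24%) and 680 lower (3.81%). Between the 2 treated infarcts, 219 of 17014 features differed 2-fold (1.29%), so the count of 2-fold features between the cell cultures was no larger than between these arrays of 1 condition. The largest difference within that pair was 3.96, and 17 features were 4-fold apart.

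The balance of higher and lower depended on the processing. Of the 2-fold features, 45.8% were higher in labelled cells, against 58.2% after quantile normalization, 59.4% after a loess correction for brightness, 56.7% in the authors' deposited table and 64.8% after normexp background correction. Dim features tended to be lower in labelled cells: the median difference was -0.15 in the dimmest eighth of features and 0.01 in the fifth and the sixth eighth. In that dimmest eighth, 29 features were 2-fold lower and 8 were 2-fold higher. At the edge of the rule, Mastl stood at 1.001 just inside and Gdf10 at 0.996 just outside, and on the lower side Tcte1 at -1.002 and Arsl at -0.997.

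Angptl4, a secreted inhibitor of lipoprotein lipase and a PPAR target, had by far the largest difference. Its signal was 729 in unlabelled and 30914 in labelled cells, a difference of 5.26 or 38.2-fold. The 2 spots of its probe gave 5.19 and 5.32, and the alternatives to the processing gave 5.10 to 5.27. On the heart arrays its level was -2.96 in sham, -0.86 in PBS and -1.40 and -1.65 in the treated infarcts, against -1.69 in unlabelled and 3.56 in labelled cells. The labelled cells thus stood apart from the other 5 arrays, all of which were at or below -0.86.

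The sequence around the annotated start of Angptl4 is shown because no other gene differed as much. It is taken from RefSeq (GRCr8, chr7:15258632-15258931, minus strand; 250 bases before the start and 50 from it), and capitals mark the only matches, on either strand, to the 11 motifs searched, a TATAAA and an overlapping TATAAA on the opposite strand.
Angptl4: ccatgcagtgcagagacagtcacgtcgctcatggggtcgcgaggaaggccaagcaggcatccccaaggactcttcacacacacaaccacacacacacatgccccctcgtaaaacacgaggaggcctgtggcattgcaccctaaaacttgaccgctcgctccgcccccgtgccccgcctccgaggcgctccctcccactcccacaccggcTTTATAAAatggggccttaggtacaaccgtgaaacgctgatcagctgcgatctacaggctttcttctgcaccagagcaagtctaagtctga
The first of these bases lies at -41 from the start, and TATAAA is in 14.3% of all 27457 promoters of the table. PPARs bind direct repeats of AGGTCA with a spacer of 1 base and LXRs repeats with a spacer of 4 bases. These repeats, with up to 2 mismatches in 12 bases, were searched for after the results were known, and they are in 3.71% and 2.88% of all promoters. Neither is in these 300 bases of Angptl4, nor in the same window of Cpt1a, Ucp2, Plin2, Ch25h, Abca1 or Lpcat3. Sequence outside these windows was not searched, so absence here does not show that a gene lacks such a site. The repeat with a spacer of 1 is in 2 of 15 promoters of the list of fatty acid oxidation and PPAR targets (13.3%), and the one with a spacer of 4 in 1 of 13 of the cholesterol efflux list. Among the 2-fold genes, the latter is in 0 of 38 promoters of the higher and 5 of 39 of the lower ones (12.8%).

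The other genes of fatty acid handling were mostly a little higher in labelled cells. Of the 22 on the array in the list of fatty acid oxidation and PPAR targets, 19 were measured, 15 higher and 4 lower, with a median of 0.28 against -0.03 over all features. There were 5 that were 1.5-fold higher and none that was 1.5-fold lower, against 2.24% and 3.81% of all features. Cpt1a, which carries long-chain fatty acids into mitochondria, had a signal of 641 in unlabelled and 2065 in labelled cells, a difference of 1.54. Its 8 spots lay between 1.43 and 1.70. On the hearts its level was -0.60 to -0.17, and labelled cells at -0.34 fell in that range while unlabelled cells at -1.88 lay below it. Ucp2, a mitochondrial carrier, went from 121 to 248 (0.89), Acaa2, the last enzyme of beta oxidation, from 2801 to 5408 (0.80), and the lipid droplet coat protein Plin2 from 12925 to 23655 (0.72). Slc25a20, the partner of Cpt1a in the inner membrane, stood at 0.43. Hadha, Hadhb and Acadvl of the long-chain spiral stood at 0.15, 0.28 and 0.29, and Acsl1 at -0.14. Pdk4 and Ucp3, both known PPAR targets, were not well above background on either array. The treated infarcts differed from each other by a median of 0.10 over this list, with 13 of 19 genes higher in replicate 1.

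Cholesterol export genes split. Ch25h, which makes 25-hydroxycholesterol, had signals of 44.0 and 246, a difference of 2.33, or 1.31 after normexp. The cholesterol pumps Abcg1 and Abca1 both differed more than 2-fold. Abcg1 went from 552 to 1515 (1.31) and Abca1 from 983 to 2667 (1.29). The 2 spots of Abcg1 gave 1.30 and 1.32 and those of Abca1 gave 1.23 and 1.36. Lpcat3, which remodels membrane phospholipids and is an LXR target, went from 9209 to 16623 (0.70), and Apoe stood at 0.36. Mylip, another LXR target that degrades the LDL receptor, was on the other side at -0.67, with a second probe at -0.57. The LXR genes themselves, Nr1h3 and Nr1h2, stood at -0.21 and 0.05. Of the 15 genes of the list, 8 were higher and 7 lower, with a median of 0.01 whose sign turned with the processing (-0.07 to 0.07). Cholesterol synthesis genes were shifted slightly: 18 of 23 were higher, with a median of 0.20, and no member was 1.5-fold apart. Nsdhl at 0.55 and Sc5d at 0.48 stood furthest up, Hmgcs1, at the head of the pathway, stood at 0.20, and the LDL receptor at 0.04.

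**Figure D2:**
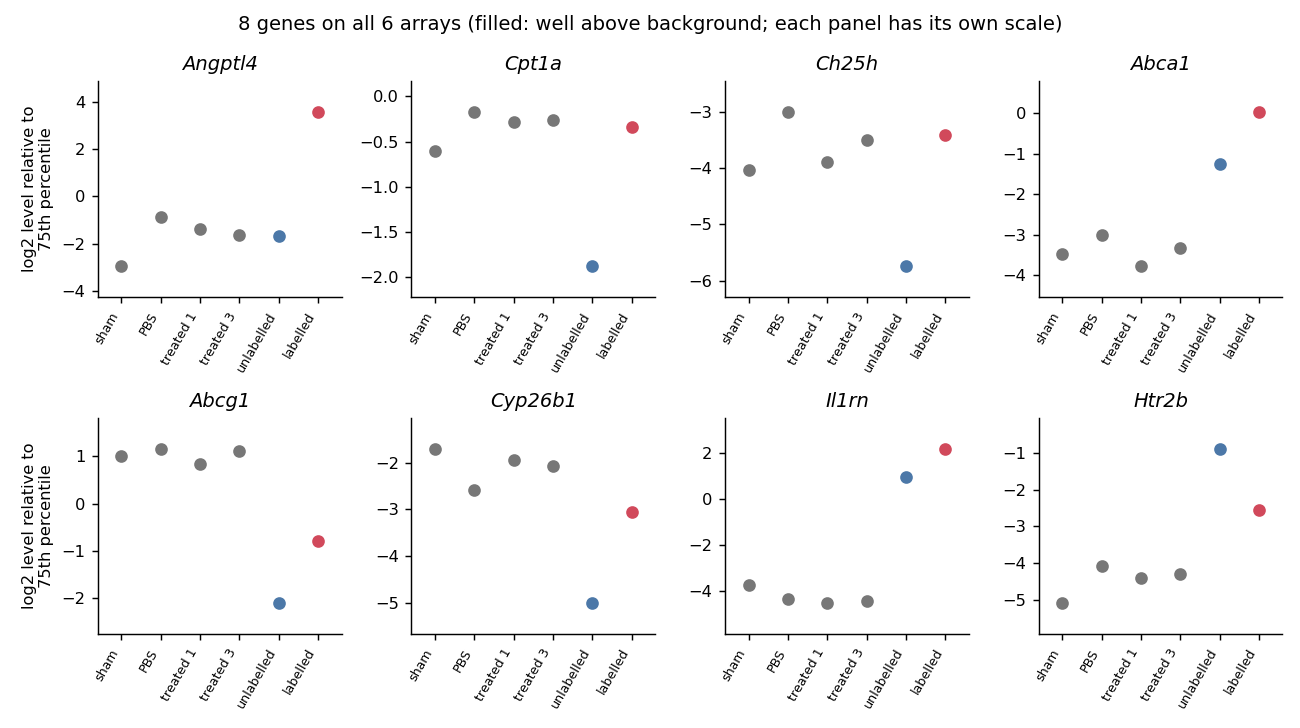
Level of 8 genes (log2 relative to the array's 75th percentile, vertical axis) on each of the 6 arrays (horizontal axis: sham, PBS and the treated infarct replicates 1 and 3 in grey, unlabelled ADSCs in blue, labelled ADSCs in red), 1 point an array and each panel on its own scale. All points are filled, which marks a signal well above background. Angptl4 was higher in labelled cells (3.56) than on any other array, whereas Cpt1a lay within the range of the hearts.

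Genes of cell division were higher in labelled cells throughout. All 22 measured mitosis genes were higher, between 0.43 for Bub1 and 0.80 for Ccnb2, with a median of 0.59 and a range of 0.55 to 0.59 over the alternatives. No member was 2-fold apart, and 11 of 22 were 1.5-fold higher, against 2.24% of all features. In the treated infarcts, replicate 1 minus replicate 3 had a median of -0.09 over the 20 members measured there, with 7 higher and none 1.5-fold apart. Ccnb2, a cyclin that starts mitosis, had signals of 763 and 1472. The mitotic kinases Plk1 and Aurkb went from 3754 to 6485 (0.64) and from 125 to 230 (0.73). Cdc20, which activates the anaphase ligase, went from 1446 to 2317 (0.53). Mki67, the proliferation marker Ki-67, went from 2821 to 4473 (0.52), and its other 2 probes gave 0.50 and 0.53. Cenpf, of the kinetochore, stood at 0.74 by its brightest probe but 0.08 by another. By their brightest probes, all 22 differences were larger than the SD of 0.309 within the treated pair.

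Genes that copy DNA showed a smaller difference. Of 25 measured members, 23 were higher, with a median of 0.37 and 2 members 1.5-fold higher, against 2.24% of all features. Cdc6, which loads the replicative helicase, went from 135 to 282 (0.92), and Rrm2, which makes deoxynucleotides, from 16225 to 28044 (0.64). The helicase subunits Mcm2, Mcm3, Mcm4 and Mcm6 stood at 0.33 to 0.53, and the sliding clamp Pcna at 0.37. Pola1, a primase partner, and Pole were the members below 0, at -0.31 and -0.09. Orc1, of the origin recognition complex and outside the list, stood at 1.18 with dim signals of 71.6 and 180, was less than 2-fold apart (0.66) under the alternative that gave the lowest value, and was picked out after its value was seen.

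Because the mitosis genes all lay on 1 side, 3 of their promoters are shown. Many mitotic genes are known for a CCAAT box, bound by NF-Y, and for a cell cycle homology region with the core TTTGAA. Capitals mark CCAAT and TTTGAA on either strand in the RefSeq windows (GRCr8) of Cdc20 (chr5:137255750-137256049, minus strand), Plk1 (chr1:186147408-186147707, plus strand) and Cenpf (chr13:103760837-103761136, minus strand).
Cdc20: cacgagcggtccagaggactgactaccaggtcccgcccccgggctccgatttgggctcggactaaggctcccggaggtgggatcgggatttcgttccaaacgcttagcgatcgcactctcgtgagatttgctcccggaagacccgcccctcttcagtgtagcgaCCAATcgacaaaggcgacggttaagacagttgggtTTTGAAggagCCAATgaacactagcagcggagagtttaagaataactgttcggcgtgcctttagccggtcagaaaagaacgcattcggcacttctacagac
Plk1: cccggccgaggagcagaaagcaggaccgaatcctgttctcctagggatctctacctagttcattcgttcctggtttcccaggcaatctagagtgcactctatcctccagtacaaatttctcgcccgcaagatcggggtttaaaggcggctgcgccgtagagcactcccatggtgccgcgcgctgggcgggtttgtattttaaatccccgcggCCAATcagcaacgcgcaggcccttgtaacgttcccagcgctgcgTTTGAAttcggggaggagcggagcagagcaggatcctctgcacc
Cenpf: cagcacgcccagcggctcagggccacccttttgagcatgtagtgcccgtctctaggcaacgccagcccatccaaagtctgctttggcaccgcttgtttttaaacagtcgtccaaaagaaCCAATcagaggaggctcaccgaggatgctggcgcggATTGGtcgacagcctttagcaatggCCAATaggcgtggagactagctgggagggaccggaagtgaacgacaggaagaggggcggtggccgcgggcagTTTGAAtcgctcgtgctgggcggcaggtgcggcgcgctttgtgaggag
In Cdc20 a TTTGAA begins at -51 and a CCAAT at -86 and at -41 from the start. In Plk1 the CCAAT begins at -38 and the TTTGAA at 6. Of the 22 mitosis genes, 19 had a promoter in the table. CCAAT was in 73.7% of these and TTTGAA in 73.7%, against 37.7% and 18.1% of all promoters, and both motifs stood together in 11 of 19 against 7.25% of all. For DNA replication, 9 of 20 promoters held TTTGGCGC or TTTCCCGC, core sites of E2F factors, against 1.53% of all. CCAAT was also in 81.2% of cholesterol synthesis promoters and 78.9% of those of the unfolded protein and integrated stress list. It was thus not limited to cell cycle genes. These are matches of letters in a fixed window and were not tied to any binding. The shares for the lists depend on which genes are listed and measured, not on their levels. They would be the same whatever the difference between the cultures, so they say nothing about it.

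The p53 targets gave no common direction. Of 21 measured, 12 were higher and 9 lower, with a median of 0.05. Phlda3 (0.67) and Mdm2, the ligase that degrades p53 (0.54), stood up, and Mdm2 went from 3140 to 5069. Rrm2b stood at 0.78, but its signals of 31.8 and 60.5 were dim and its 2 spots gave 0.11 and 1.44. Cdkn1a, the p21 inhibitor of the cell cycle, went from 26767 to 35968 (0.28). The pro-apoptotic Bax went the other way, from 10496 to 7530 (-0.63), as did the damage gene Gadd45a (-0.55). Genes of DNA damage signalling and repair had 13 of 20 higher and a median of 0.08, and Fancd2, which is also used in replicating cells, stood at 0.60. Of 19 apoptosis regulators, 9 were higher and 10 lower, and none was 1.5-fold apart. The list of NRF2 and antioxidant genes had 9 of 22 higher and a median of -0.04, with Hmox1 and Nqo1 at -0.04 and -0.06. The heat shock list stood at 0.05. In the list of unfolded protein and integrated stress genes, 16 of 21 members were lower with a median of -0.13. Trib3 went from 3288 to 2123 (-0.78), and the chaperone Hspa5 stood at 0.01.

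**Figure D3:**
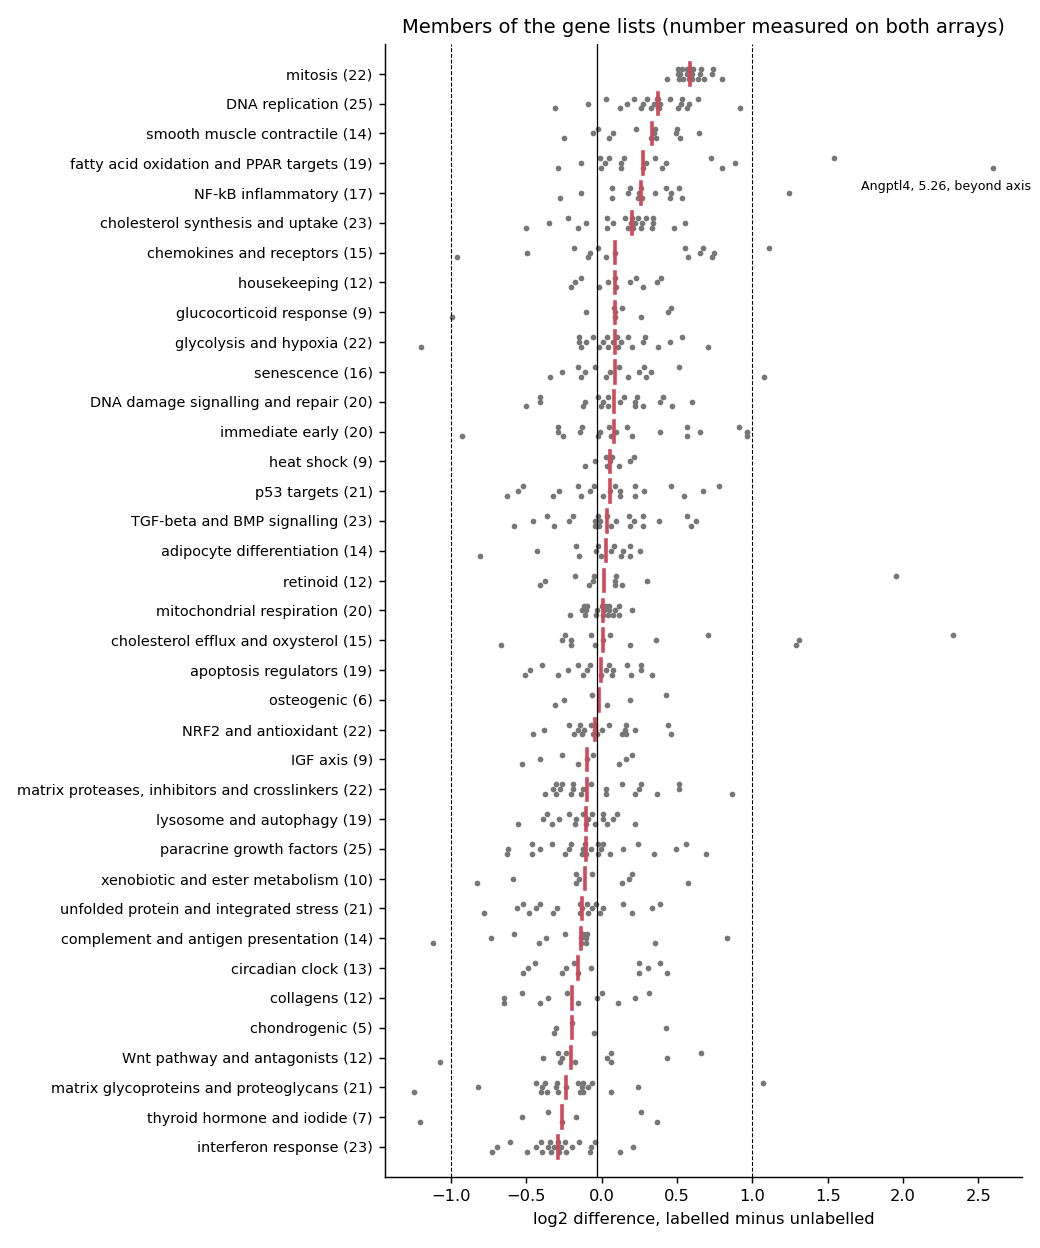
Difference between labelled and unlabelled ADSCs (log2, horizontal axis) for each measured member (grey points) of 37 gene lists (vertical axis, number measured in brackets), with each list's median in red. The solid line is the median of all features (-0.03) and dashed lines mark 2-fold. Angptl4 at 5.26 is drawn at the right edge. Mitosis is the list whose points all lie above 0, with a median of 0.59, and the interferon list lies lowest at -0.29.

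Inflammatory genes were mixed in size, and those of the NF-kB list were mostly higher. Of 17 measured NF-kB genes, 15 were higher, with a median of 0.26 (0.12 to 0.37 over the alternatives) against -0.05 in the treated pair. Il1rn, the natural antagonist of the interleukin-1 receptor, went from 4569 to 11967 (1.24), and was the one member 1.5-fold apart. In the 4 hearts its level was -4.51 to -3.72, far below the 0.95 and 2.19 of the cells. Ptges, the prostaglandin E synthase, stood at 0.51. Tnf and Ptgs2 were dim, and their differences of 0.53 and 0.46 shrank to 0.12 and 0.11 after normexp. Il1a was well above background in labelled cells alone (signals of 22.1 and 105), at least 4.31-fold higher against the signal used as a floor. Among 15 chemokines and receptors, 9 were higher and 6 lower, with a median of 0.09. At 1.5-fold, 5 were higher and 1 was lower, against 2.24% and 3.81% of all features. The monocyte attractants Ccl2 and Ccl7 were among the brightest genes, at 65328 and 115514 (0.67) and at 32738 and 56927 (0.65). The neutrophil attractant Cxcl1 went from 2850 to 5251 (0.73) and the chemokine scavenger Ackr3 from 3274 to 6093 (0.75). Cxcl6 went from 73.1 to 175 (1.11, or 0.62 after normexp). Cx3cl1 (fractalkine) was on the other side, from 2124 to 1208 (-0.96). The stromal chemokine Cxcl12 stood at 0.03.

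Interferon response genes lay on the lower side. Of 23 measured, 21 were lower, with a median of -0.29 and 3 members 1.5-fold lower, against 3.81% of all features. The antiviral Mx2 went from 41007 to 27395 (-0.73), Bst2 from 1305 to 894 (-0.69) and Oas1a from 905 to 656 (-0.61). Mx1 stood at -0.34, while Rsad2 (0.21) and Ifit3 (0.12) were above 0. The treated infarcts differed from each other by a median of -0.12 over this list, with 2 of 21 members higher, so replicates of 1 condition were shifted as one-sidedly at a smaller size. In the complement and antigen presentation list, 12 of 14 were lower with a median of -0.14. C4a, a component of the classical pathway, went from 12260 to 6242 (-1.12), C2 from 7620 to 5079 (-0.73, second probe -0.71) and the inhibitor Serping1 from 24979 to 18515 (-0.58). Cd55, which breaks up the C3 convertase, was higher at 0.83, and 0.32 by another probe.

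Matrix glycoproteins and proteoglycans were on the lower side with a few exceptions. Of 21 glycoproteins and proteoglycans, 18 were lower, with a median of -0.24 (-0.25 to -0.14). The treated pair had a median of -0.18 and 3 of 19 higher over the same list. Elastin (Eln) went from 451 to 211 (-1.24) on 1 spot. The collagen-binding Fmod went from 1923 to 1208 (-0.82), and Fbn1, Postn and Mfap4 stood at -0.44, -0.40 and -0.40. Tnc (tenascin C) was the exception at 1.07, from 5046 to 11731, and both of its spots gave 1.06 to 1.07. Tnc was not well above background on any of the 4 heart arrays. Of 12 collagens, 8 were lower and 4 higher, near the balance of all features, of which 44.2% were higher. Their median was -0.19, beside -0.18 in the treated pair. Col6a2 went from 77168 to 54620 (-0.65), while the fibrillar Col1a1 and Col3a1 stood at -0.03 and 0.00. The protease Adamts1 went from 7791 to 15742 (0.87). Contractile genes of smooth muscle were higher for 11 of 14 members, with a median of 0.34. Cnn1 stood at 0.65, Tagln at 0.50 and Acta2 at 0.35. The treated pair differed by a median of -0.50 on this list, which is more than the cell cultures did. The smooth muscle cell markers, which overlap this list, summed to 13.3 in unlabelled and 16.6 in labelled cells (as multiples of the 75th percentile signal), with 5 of 6 higher, and their part in the result was not tested.

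**Figure D4:**
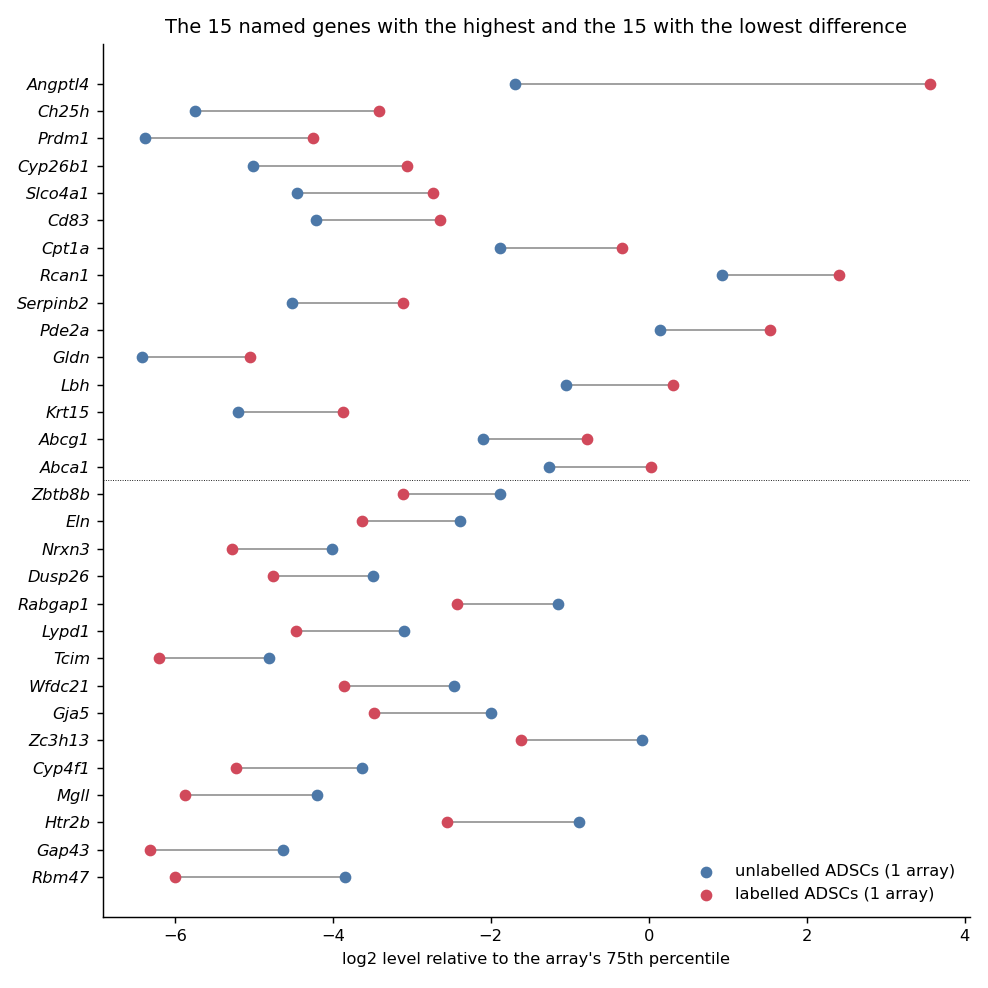
Levels (log2 relative to the array's 75th percentile, horizontal axis) of the 15 named genes with the highest and the 15 with the lowest difference (vertical axis), with unlabelled ADSCs in blue and labelled ADSCs in red, 1 array each. The line joins both arrays. The gap is 5.26 for Angptl4 and at most 2.33 for each of the other genes shown.

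Besides the lipid genes, the highest named genes were of several kinds. Prdm1, a transcriptional repressor that drives plasma cell fate, had dim signals of 28.3 and 138, a difference of 2.13, or 0.95 after normexp. Cyp26b1, which degrades retinoic acid, went from 73.3 to 314 (1.95, or 1.28 after normexp), and its 10 spots gave 1.77 to 2.13. The other 11 measured retinoid genes lay between -0.41 and 0.30. The organic anion carrier Slco4a1 went from 108 to 395 (1.73) and the immune surface protein Cd83 from 128 to 421 (1.57). Rcan1, an inhibitor of calcineurin, was bright, at 4485 and 13879 (1.48) on 1 spot, and its second probe gave 2.01. Pde2a, which breaks down cyclic nucleotides, was bright as well, at 2609 and 7573 (1.39). So was the transcription cofactor Lbh, at 1142 and 3222 (1.35) on 1 spot. Serpinb2, an inhibitor of plasminogen activators, stood at 1.41, and Gldn and Krt15 at 1.36 and 1.33. These last 3 were dim and stood at 0.94, 0.57 and 0.77 after normexp.

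Among the lowest, Htr2b, the serotonin receptor 2B, was well clear of the dim range, at 1281 and 446 (-1.67), with spots at -1.79 and -1.55. Its level in the hearts was -5.08 to -4.09, below both cell arrays. Gja5, the gap junction protein connexin 40, went from 589 to 235 (-1.47), and Rabgap1 from 1069 to 486 (-1.29). Wfdc21 went from 428 to 180 (-1.40), Lypd1 from 275 to 119 (-1.36) and Zbtb8b from 640 to 302 (-1.23). Wfdc21 and Zbtb8b rest on 1 spot each. Rbm47, an RNA-binding protein, was lowest at -2.15, on 1 spot with signals of 164 and 40.8. Mgll, the lipase that splits monoglycerides, went from 128 to 44.7 (-1.67) and the fatty acid hydroxylase Cyp4f1 from 190 to 69.7 (-1.60). Gap43, a growth cone protein, stood at -1.68, but its 2 spots gave -3.09 and -0.27. Zc3h13 stood at -1.54 by its brightest probe, on 1 spot, and at -0.82 and -0.08 by the other 2. Tcim, Dusp26 and Nrxn3 stood at -1.39, -1.26 and -1.26, with Tcim on 1 spot. After normexp Rbm47, Gap43, Mgll, Tcim, Dusp26 and Nrxn3 were less than 2-fold lower (-0.96 to -0.59), and Cyp4f1 was at -1.001.

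Some genes were well above background on 1 array alone: 144 named genes in labelled and 237 in unlabelled cells. Of these, 16 and 24 were at least 2-fold apart when set against the higher of the dim probe's own signal and the lowest signal well above background on that array. The largest bounds in labelled cells were for Lrrc34 (at least 5.50-fold), Loxhd1 (5.17-fold) and Terb2 (4.74-fold), with signals of 128, 120 and 110, followed by Il1a and by Csf2rb, a receptor subunit for myeloid cytokines (4.28-fold). In unlabelled cells they were for the carrier Slc25a54 (at least 8.98-fold, signal 222), Ccdc172 (5.62-fold), the phosphodiesterase Pde9a (3.78-fold), Clgn (2.87-fold) and the ligand Wnt16 (2.71-fold).

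Spots of 1 probe were mostly close to each other. Among 1139 probes with 8 or more spots, the SD of a difference over its spots was 0.06 at the median and 0.21 at the 95th percentile. Median differences over 16 blocks of the array surface ran from -0.03 to 0.01. Different probes of a gene were less close: over 1812 genes with a second measured probe, the correlation of their differences across genes was 0.48. Of 8 such genes that were 2-fold apart by the brightest probe, 7 had the second on the same side and 5 also 2-fold apart. Spots and probes of an array share 1 RNA sample, so they measure the array and not the culture.

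Markers of blood, endothelial and epithelial cells were measured in part. In the T and NK cell list, 3 of 10 members were measured. Gzmb, a granzyme, went from 202 to 96.7 (-1.21, second probe -1.56), and stood at -0.79 under the alternative that gave the smallest difference. Cd3e, Cd3g, Cd2, Cd8a, Cd4 and Lck were not well above background on either array, and the list summed to 0.405 in unlabelled and 0.302 in labelled cells. The mast cell list had 2 of 7 measured, with the histidine decarboxylase Hdc at -0.88, and Cpa3, Cma1 and Tpsab1 not well above background. It summed to 0.262 and 0.150. The macrophage list had 8 of 14 measured, 2 higher and 6 lower with a median of -0.17, although it summed to 2.06 and 2.23. In that list 1 more member was well above background on 1 cell array alone. Lyz2 stood at -0.57, and Cd163, Mrc1 and C1qa were not well above background. In the epithelial list 3 of 5 members were measured, 1 higher and 2 lower, with a median of -0.42. The higher one, Krt7, went from 1127 to 2818 (1.17), and Epcam and Cdh1 were not well above background. The list summed to 0.557 and 1.14. In the blood endothelial list the VEGF receptor Kdr went from 1357 to 2494 (0.73) beside Pecam1 at -0.04, and it summed to 0.840 and 1.19. What part such cells had in the differences was not tested. In bulk samples a smaller number of cells and less RNA per cell cannot be told apart.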

How the data were processed

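RNA came from a Qiagen column kit, and Cy3-labelled cRNA was made from it with an Agilent Quick Amp kit, per the labels' protocols. The authors deposited scanner output with intensity values for 62976 spots per array, of which 58717 are not controls. Per the submitters' processing notes, it was produced by Agilent Feature Extraction 11.0.1.1. All 6 arrays lay on 1 slide in 1 scan. The authors also deposited a log2 table. How that table was made is not given in the sources used. Both its cell columns had a median of 9.67 and followed log2 processed signal (r 1.000), and it served as an alternative.

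Outlier-flagged and control spots were dropped, and spots of a probe were averaged on the log2 scale. The 75th percentile was taken over all spots that are no controls. A probe was called well above background when over 50% of its spots were. Scanner files hold no gene names, so 18355 of 30367 probes were named through unversioned accessions in a RefSeq table (GRCr8), and 12012 were not. A gene was read from its brightest probe. A symbol may stand for paralogs with a common probe.

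Named genes were the 15 highest and 15 lowest, up to 6 each way measured on 1 side, up to 5 members per list furthest from 0, and the defining markers. Where the text names another member of a list or a gene outside the lists, it was picked with its value known. Members, lists and rules were chosen with earlier results of these data known. Some genes that these rules name are not reported here. No test was made, since each side has 1 array. The scripts were tested on simulated data. Normexp (limma 3.58.1, R 4.3.3, offset 50) used the median signal.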

Additional observations from a re-analysis of the deposited data

How the results depend on the processing

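With 1 array a side, only sizes could be followed. Of 168 2-fold features (77 higher and 91 lower), normexp background correction left 71 (46 and 25), and the features above the median brightness held 43 (29 and 14). With no filter on dim probes there were 1380 (385 and 995). The other alternatives gave 164 to 171. Normexp kept 46 of the 77 higher and 24 of the 91 lower features; quantile normalization kept 76 and 69. With Agilent's positive-and-significant flag in place of well above background, 272 named genes were measured only in labelled and 550 only in unlabelled cells. Over 262 named genes, a difference moved by more than 0.309 in 26 cases under normexp, 4 with the mean over probes and 1 in the authors' table. No 2-fold difference of these genes turned its sign, and 4 list medians moved, each among the features above the median brightness. The 75th percentile over probe means was tried after seeing the data and gave 73 and 98. Under 7 alternatives of scaling, background and probe, list medians kept their sign, except for apoptosis regulators (4 of 7 above 0), cholesterol efflux (5 of 7), adipocyte differentiation, mitochondrial respiration, retinoid and neutrophil (6 of 7 each), and osteogenic, fibroblast, blood and lymphatic endothelial (3 of 7 each). No paired analysis was possible because each cell condition has 1 array. Dim signals limit small differences most.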

Other observations

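Several lists not described above were also followed. Among 25 measured paracrine growth factors, 17 were lower and 8 higher, with a median of -0.11; of all measured features 44.2% were higher. Bdnf, a neurotrophin, went from a signal of 142 in unlabelled to 254 in labelled cells (0.69 on the log2 scale) and Hbegf stood at 0.56. Il11 and Hgf, both secreted by stromal cells, stood at -0.63 and -0.62, and Vegfa at -0.25. Areg, a ligand of the EGF receptor in the senescence list, went from 96.6 to 226 (1.08, or 0.61 after normexp). In the Wnt list the antagonist Frzb went from 930 to 489 (-1.08), or -0.97 under the alternative that gave the smallest difference. The related Sfrp4 went from 5053 to 8826 (0.66). Among 20 immediate early genes, 12 were higher and 8 lower, with a median of 0.08. The orphan receptors Nr4a3 and Nr4a1 stood at 0.96 and 0.91 and the phosphatase Dusp1 at 0.96, whereas Fosb went from 965 to 562 (-0.93).

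Adipocyte differentiation genes were even, with 7 of 14 higher and a median of 0.03. Pparg stood at 0.19, Lpl at -0.02, and Klf15, a factor that promotes fat cell formation, went from 2767 to 1749 (-0.81) with its 10 spots between -0.92 and -0.73. Fabp4 and Lipe were well above background in labelled cells alone. In the thyroid hormone and iodide list 7 of 12 were measured, 2 higher and 5 lower, with a median of -0.26. Thrsp went from 68.8 to 33.0 (-1.21, or -0.51 after normexp), and the iodide carrier Slc5a5 was dim at 38.8 and 29.8. In the glucocorticoid response list 7 of 9 members were higher, with a median of 0.09. Its lowest member was Glul, the glutamine synthetase, which went from 2508 to 1396 (-0.99). In the glycolysis and hypoxia list 15 of 22 were higher, with a median of 0.09. There Ndrg1 was lowest, from 1696 to 817 (-1.20). Of 12 housekeeping genes, 8 were higher, with a median of 0.09 and a range from -0.20 for Rpl13a to 0.39 for Actb.

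Features that were 2-fold higher in labelled cells were also looked up in the hearts. Of the 77, 56 were measured there, and 11 (19.6%) were higher in both treated infarcts than in the PBS infarct while 26 (46.4%) were lower in both. Of the 91 lower features, 68 were measured there, 25 (36.8%) higher and 27 (39.7%) lower in both. Over all 15587 measured features the shares were 39.0% and 33.9%. The same PBS array serves both treated arrays. The feature furthest down, 7.92-fold, was a probe with no gene name here (A_64_P128876). It rests on 1 spot, with signals of 247 and 34.6. Under the alternative that gave the smallest difference it was less than 2-fold lower (-0.98).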
